A study of Mus musculus with 7 samples.

Results

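Fatty acid, triglyceride and phospholipid synthesis was followed in primary mouse hepatocytes through a list of 38 enzymes and regulators of these pathways, named by gene symbol. The arrays measured 36 of the 38, among 19938 genes tested in all. The hepatocytes came from C57BL/6J mice and received either a miR-709 mimic (1 µg, 4 arrays, replicates A to D) or the same amount of Cel-239b, a control miRNA of the worm (3 arrays, replicates B to D). Total RNA was taken 24 h later and hybridised to Affymetrix mouse gene 1.0 ST arrays, 1 array for each replicate. The cells had been cleared of non-parenchymal cells on a Percoll gradient and were cultured in medium with serum, insulin and dexamethasone, which both treatments shared. Neither the labels nor the methods say whether the replicates came from separate mice or isolations, so the spread behind each p-value is that among these arrays and may be technical. With cells in bulk, fewer cells of a type and less RNA per cell cannot be told apart.

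Hepatocytes make fatty acids from cytosolic acetyl-CoA. Citrate is split to acetyl-CoA, acetyl-CoA is carboxylated to malonyl-CoA, and fatty acid synthase builds palmitate from it with NADPH. Desaturases and elongases then modify the chain, acyltransferases load it onto glycerol 3-phosphate to give phosphatidate, and phosphatidate is the branch point. Lipins remove its phosphate to give diacylglycerol, which becomes triglyceride or, with activated choline or ethanolamine, phosphatidylcholine or phosphatidylethanolamine. SREBP-1c, encoded by *Srebf1*, is the insulin-responsive transcription factor of many of these genes.

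The values are log2 signals per probe set as the authors deposited them, so that a difference of 1 is a doubling. They ran from 1.92 to 14.08 with array medians of 5.04 to 5.07, and the number of arrays limits the precision. A gene is called lower or higher where limma, a linear model with moderated variances fitted to all 19938 genes, gave a Benjamini-Hochberg adjusted p under 0.05. The 1-way ANOVA that the methods name was run beside it and is called the methods' t-test. The hepatocyte markers were bright in both treatments, with a mean log2 signal over 9 of 10 listed markers of 11.04 to 11.16 on miR-709 arrays and 10.84 to 10.94 on Cel-239b arrays. Of these, *Hnf4a*, *Tat* and *Cps1* were called higher and 6 were not called. The log2 fold change was below 0 for 2 of the 9, *Alb* at -0.03 and *Apob* at -0.18. For comparison with the marker calls, 1.81% of all genes tested were called higher and 1.47% lower. When only genes whose log2 signal averaged at least 6 were tested, 6.43% were called higher and 4.24% lower. Of 7 measured bile duct markers *Krt19* and *Sctr* were called lower, of 10 stellate cell markers *Acta2* was called lower, and limma called 0 of the 10 endothelial, 10 Kupffer cell or leukocyte and 5 fat cell markers (2, 0 and 0 had an unadjusted p under 0.05, and the methods' t-test called 0 after adjustment). Signals of interferon-stimulated genes stood apart on 2 arrays: over 14 of 16 listed genes the mean difference from the Cel-239b mean was 0.99 and 0.96 on miR-709 replicates C and D, against -0.15 and -0.07 on miR-709 replicates A and B and -0.18 to 0.24 on Cel-239b arrays. The calls, the desaturases and *Fasn* are given with and without these 2 arrays.

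Of the 36 measured genes, 4 passed the test. *Fads2* and *Agpat1* were lower with miR-709, *Lpin2* and *Pcyt1a* were higher, and 32 were not called. The 2 lower genes were 5.56% of the 36 where 1.47% of all genes tested were called lower, and the 2 higher genes were 5.56% where 1.81% of all genes were called higher. These genes lie in the brighter part of the array, which bears on that reading: the median mean log2 signal was 9.02 over the lipid synthesis genes and 5.37 over all genes. When only the 8638 genes whose log2 signal averaged at least 6 were tested, 34 of the lipid genes remained in the table, 5.88% of them were called lower against 4.24% of all such genes, and 8.82% were called higher against 6.43%. The shares of called genes were near the background of genes of like signal. The median log2 fold change was 0.03 over the 36 genes and 0.01 over all genes. Of the 36, 20 were above 0 and 16 below, where 10946 of all 19938 genes were above 0 and 8992 below. *Pcyt1a* was the only lipid synthesis gene whose fitted change exceeded 1.5-fold. For 31 of the 32 genes that were not called, the 95% confidence interval of the change lay inside 1.5-fold in both directions, the exception being *Scd2*. Over all genes tested, the same held for 18917 of the 19284 that were not called.

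**Figure D1:**
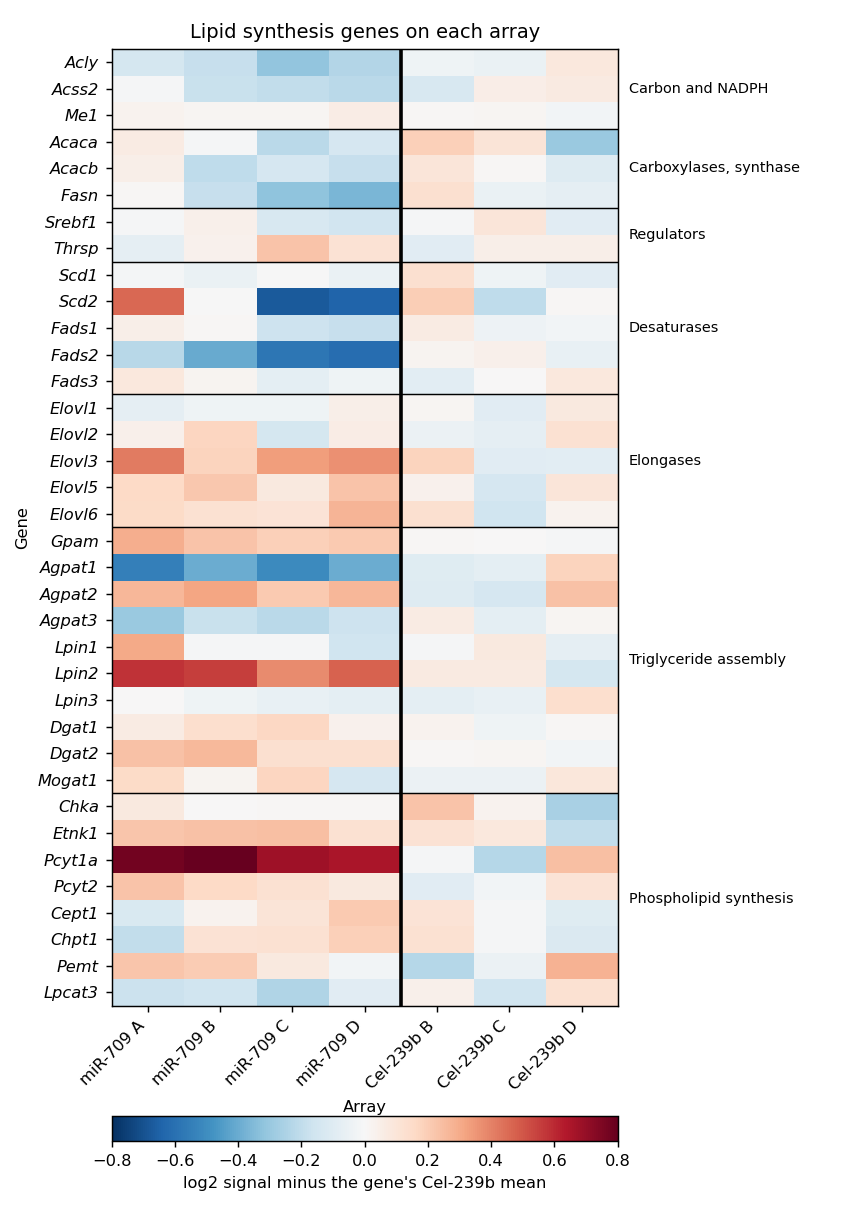
Each row is a gene and each column an array, with the miR-709 arrays on the left of the black line and the Cel-239b arrays on its right. Colour gives the log2 signal minus the mean of the 3 Cel-239b arrays for that gene. *Pcyt1a*, *Lpin2*, *Agpat1* and *Fads2* have 1 colour on all 4 miR-709 arrays, as do some genes not called, such as *Acly* and *Gpam*. Most rows are pale.

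The 2 genes that rose belong to the supply of diacylglycerol and of activated choline. *Pcyt1a* encodes CCT alpha, which makes CDP-choline in the rate-limiting step of phosphatidylcholine synthesis from choline. Its log2 signal was 9.34, 9.37, 9.25 and 9.22 on miR-709 arrays A, B, C and D, against 8.56, 8.34 and 8.81 on Cel-239b arrays B, C and D. All 4 miR-709 arrays lay above all 3 Cel-239b arrays, and the Cel-239b arrays spread more widely (SD 0.24) than the miR-709 arrays (SD 0.07). The log2 fold change from limma was 0.73 with a standard error of 0.10 (1.65-fold, adjusted p = 0.0050).

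*Lpin2* encodes lipin 2, a phosphatidate phosphatase that supplies diacylglycerol. It gave 10.76, 10.73, 10.56 and 10.65 on miR-709 arrays A to D, against 10.25, 10.25 and 10.04 on Cel-239b arrays B to D, again without overlap. limma gave a log2 fold change of 0.50 (standard error 0.08, 1.41-fold, adjusted p = 0.0077). Both calls were kept when any single array was left out, with adjusted p of at most 0.0340 for *Pcyt1a* and 0.0310 for *Lpin2*. Without both miR-709 arrays C and D, a fit with 2 miR-709 arrays, the log2 fold changes were 0.79 and 0.57 and neither was called (adjusted p = 0.0868 for *Pcyt1a* and 0.0612 for *Lpin2*).

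*Agpat1* encodes an acyltransferase of the endoplasmic reticulum that adds the second fatty acid to make phosphatidate. Its log2 signal was 7.12, 7.27, 7.16 and 7.27 on miR-709 arrays A to D, against 7.57, 7.59 and 7.85 on Cel-239b arrays B to D. All miR-709 arrays were below all Cel-239b arrays, and Cel-239b replicate D was the highest of the 7. The log2 fold change was -0.47 (standard error 0.08, 1.38-fold lower, limma adjusted p = 0.0144). It missed the threshold when miR-709 replicate A (adjusted p = 0.0503) or miR-709 replicate C (adjusted p = 0.0558) was left out, while the log2 fold change lay between -0.52 and -0.38 whichever single array was left out. It also missed it without both miR-709 arrays C and D (log2 fold change -0.48, adjusted p = 0.152) and with the methods' t-test (adjusted p = 0.117).

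*Fads2* encodes the delta-6 desaturase, which starts the conversion of linoleic and alpha-linolenic acid to long polyunsaturated fatty acids. It gave 10.43, 10.25, 10.07 and 10.04 on miR-709 arrays A to D, against 10.67, 10.69 and 10.59 on Cel-239b arrays B to D. The groups did not overlap, and replicates C and D were the lowest. The log2 fold change was -0.45 (standard error 0.09, 1.37-fold lower, limma adjusted p = 0.0340). This call depended on single arrays: it was lost when Cel-239b replicate B (adjusted p = 0.127), C (0.156) or D (0.0745) or miR-709 replicate B (0.0810), C (0.108) or D (0.0982) was left out, though the change stayed between -0.53 and -0.40. Without both miR-709 arrays C and D it was -0.31 (adjusted p = 0.196).

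**Figure D2:**
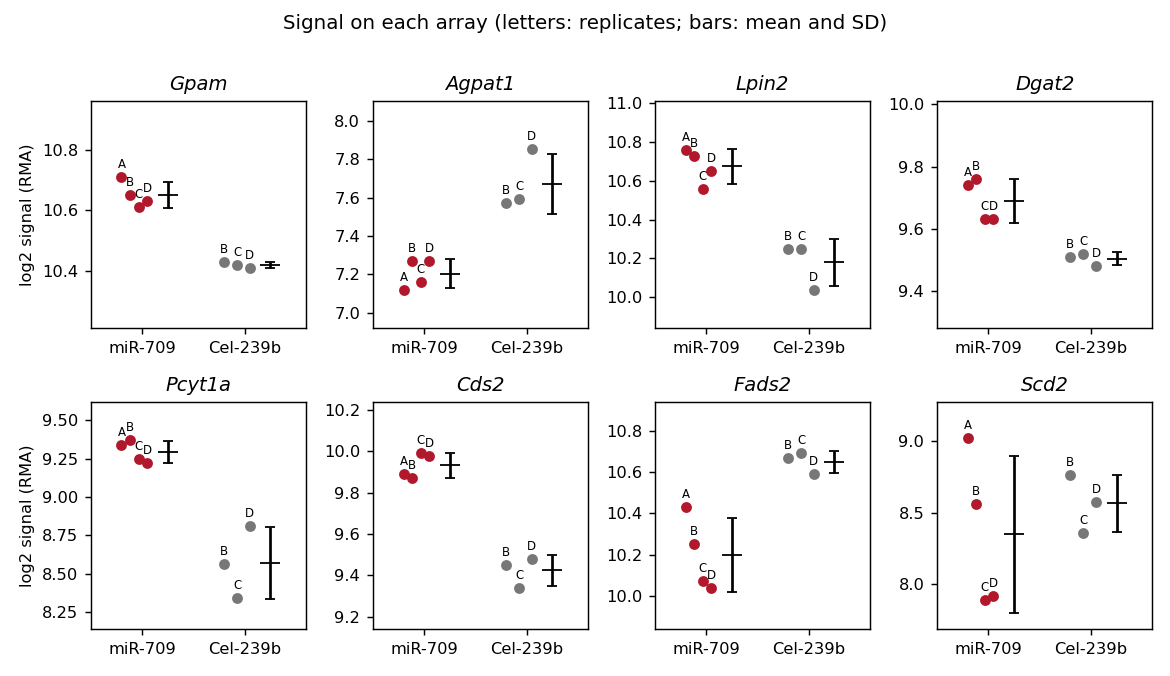
Log2 signal on each array for 8 genes, miR-709 in red at the left of each panel and Cel-239b in grey at the right, with letters for replicates and a bar for the mean and SD. *Agpat1* and *Fads2* lie lower on all 4 miR-709 arrays, *Gpam*, *Lpin2*, *Dgat2*, *Pcyt1a* and *Cds2* lie higher on all 4, and the *Scd2* arrays overlap. Each panel has its own vertical axis, which does not start at 0.

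The stretch of 250 bases before the RefSeq transcription start (mouse build GRCm38.p6) is given for the 4 called genes, because these genes carry the calls above. Windows were found for 31 of the 38 genes. Both strands were searched for 3 motifs that do not overlap one another in these windows: TCACNCCAC, a sterol regulatory element read by SREBP proteins, the CCAAT box CCAAT, bound by NF-Y, and the E-box CACGTG. Capitals mark the matches, and where RefSeq gives several starts the window with the most motifs is shown.
Pcyt1a: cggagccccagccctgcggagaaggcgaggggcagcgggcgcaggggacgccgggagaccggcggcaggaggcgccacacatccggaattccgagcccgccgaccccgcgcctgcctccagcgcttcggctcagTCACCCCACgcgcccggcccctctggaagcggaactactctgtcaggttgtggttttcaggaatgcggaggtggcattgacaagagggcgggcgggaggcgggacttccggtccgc
Lpin2: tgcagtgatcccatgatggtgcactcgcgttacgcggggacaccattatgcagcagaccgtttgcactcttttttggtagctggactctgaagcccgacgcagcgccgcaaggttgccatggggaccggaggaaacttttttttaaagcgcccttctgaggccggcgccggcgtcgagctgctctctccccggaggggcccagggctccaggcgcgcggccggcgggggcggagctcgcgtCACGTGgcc
Agpat1: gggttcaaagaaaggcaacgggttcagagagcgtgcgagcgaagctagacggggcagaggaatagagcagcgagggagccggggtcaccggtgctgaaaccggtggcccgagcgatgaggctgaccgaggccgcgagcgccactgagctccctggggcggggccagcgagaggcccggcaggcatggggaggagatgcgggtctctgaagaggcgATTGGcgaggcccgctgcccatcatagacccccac
Fads2: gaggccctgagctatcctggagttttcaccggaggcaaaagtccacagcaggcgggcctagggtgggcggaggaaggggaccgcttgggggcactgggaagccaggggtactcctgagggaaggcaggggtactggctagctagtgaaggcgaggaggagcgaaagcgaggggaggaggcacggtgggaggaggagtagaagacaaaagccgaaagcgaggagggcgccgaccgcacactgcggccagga
These windows lie at chr16:32430671-32430920 (*Pcyt1a*, forward strand), chr17:71183282-71183531 (*Lpin2*, forward strand), chr17:34605611-34605860 (*Agpat1*, forward strand) and chr19:10101504-10101753 (*Fads2*, reverse strand). *Pcyt1a* holds a match to the sterol regulatory element that begins 116 bases before the start, *Lpin2* an E-box 9 bases before it (another of its 3 windows holds a CCAAT box) and *Agpat1* a CCAAT box on the opposite strand 35 bases before it. None of the 3 motifs is in the *Fads2* window, which says only that these letters are not in it. Over all windows, TCACNCCAC was present in 1 of the 31 genes (3.23%) and in 1.22% of 27025 genes, CCAAT in 17 (54.8%) against 37.5%, and CACGTG in 2 (6.45%) against 6.86%. A match is a description of the letters and not of a bound site.

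Carbon and reducing power for synthesis come from *Acly*, *Acss2* and *Me1*, none of which was called. *Acly* encodes ATP citrate lyase, which splits citrate to acetyl-CoA in the cytosol. It gave 10.0, 9.96, 9.83 and 9.91 on miR-709 arrays A to D, against 10.11, 10.09 and 10.23 on Cel-239b arrays B to D, so that the groups did not overlap. The log2 fold change was -0.22 (standard error 0.06, unadjusted p = 0.0080, limma adjusted p = 0.131). Over all 36 genes, 4 had every miR-709 array below every Cel-239b array (11.1%) and 6 had every miR-709 array above (16.7%), where 4.91% and 7.44% of all genes did so, and 8.21% and 13.8% of the genes whose log2 signal averaged at least 6. *Acss2*, which makes acetyl-CoA from acetate, had a log2 fold change of -0.15 with overlapping arrays. *Me1*, the malic enzyme that yields NADPH, was the steadiest of the 36 genes by its standard error (0.05). It gave 11.66, 11.65, 11.65 and 11.69 on miR-709 arrays A to D, against 11.64, 11.65 and 11.61 on Cel-239b arrays B to D (log2 fold change 0.03), and a second, dimmer probe set of the gene gave 0.02.

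The carboxylases and the synthase had fitted changes below 0 in all 3 genes, with none called, and *Acaca* was at 0.03 without miR-709 arrays C and D. *Fasn*, fatty acid synthase, gave 9.12, 8.93, 8.79 and 8.75 on miR-709 arrays A to D, against 9.24, 9.06 and 9.04 on Cel-239b arrays B to D. Only miR-709 replicate A reached into the Cel-239b range. Its log2 fold change was -0.22 with a 95% interval of -0.43 to 0.00 (limma adjusted p = 0.335), and -0.09 without miR-709 arrays C and D. *Acaca*, the acetyl-CoA carboxylase of the cytosol, had a log2 fold change of -0.07 on the probe set used and 0.06 on a dimmer one, so the sign depended on the probe set. *Acacb*, the carboxylase at the mitochondrial surface, had -0.12. Neither of the regulators was called. *Srebf1* gave 7.88, 7.93, 7.76 and 7.74 on miR-709 arrays A to D, against 7.88, 7.99 and 7.80 on Cel-239b arrays B to D (log2 fold change -0.06, 95% interval -0.23 to 0.10, limma adjusted p = 0.751). *Thrsp*, which encodes the lipogenic protein Spot 14, had a log2 fold change of 0.08 with overlapping arrays.

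Among the 5 desaturases all fitted changes were below 0, as in 8992 of all 19938 genes, and *Fads2* was the gene called. Of all genes 1.47% were called lower, and 4.24% when only genes averaging at least 6 were tested. Without miR-709 arrays C and D, 3 of the 5 were above 0 (*Scd2* at 0.23, *Fads3* at 0.05 and *Fads1* at 0.03) and 2 were below. *Scd1*, the main stearoyl-CoA desaturase of liver, gave 12.37, 12.33, 12.38 and 12.33 on miR-709 arrays A to D, against 12.51, 12.35 and 12.29 on Cel-239b arrays B to D. The log2 fold change was -0.03 (95% interval -0.18 to 0.12). *Scd2*, a second stearoyl-CoA desaturase, varied most, and is described here because of its spread, seen after its values were known. It gave 9.02, 8.56, 7.89 and 7.92 on miR-709 arrays A to D, against 8.76, 8.36 and 8.57 on Cel-239b arrays B to D. Replicates C and D were below every other array and replicate A was above every other array. The log2 fold change was -0.22 (standard error 0.25, limma adjusted p = 0.754). *Fads1*, the delta-5 desaturase that acts after *Fads2*, had a log2 fold change of -0.07, and *Fads3* had -0.0017. Within each array, the log2 ratio of *Fads2* to *Fads1* was -0.35, -0.49, -0.50 and -0.51 on miR-709 arrays A to D, against -0.13, 0.00 and -0.12 on Cel-239b arrays B to D. The ratios did not overlap, and their difference was not tested. *Fads2* was already called without overlap on these arrays, so the ratio is not separate support for that call. The same holds for the later ratios of *Agpat1*, *Lpin2* and *Pcyt1a*. The log2 ratio of *Scd2* to *Scd1* overlapped between treatments (difference -0.185, not tested).

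The lower values on replicates C and D were shared by other genes and lists. As the mean difference from the Cel-239b mean, the 5 desaturases stood at 0.07, -0.09, -0.30 and -0.31 on miR-709 arrays A to D, against 0.06, -0.05 and -0.02 on Cel-239b arrays B to D. The carboxylases and the synthase stood at 0.04, -0.13, -0.22 and -0.23 on miR-709 arrays, against 0.14, 0.02 and -0.16 on Cel-239b arrays. The 7 measured bile duct markers of 10 were at -0.18, -0.18, -0.40 and -0.39 on miR-709 arrays A to D, against 0.06, -0.01 and -0.05 on Cel-239b arrays. Summed on the linear scale, these markers gave 504 to 818 on miR-709 arrays, against 1061 to 1211 on Cel-239b arrays. *Krt19* made up most of this: the other 6 summed to 281 to 323 on miR-709 arrays, against 322 to 376 on Cel-239b arrays, and averaged -0.11, -0.07, -0.19 and -0.16 on miR-709 arrays A to D. Their fitted changes ran both ways, with *Epcam* at 0.09 and *Muc1* at 0.10, neither called. Likewise, without *Fads2* and *Scd2* the other 3 desaturases averaged 0.04, -0.01, -0.08 and -0.09 on miR-709 arrays A to D, against 0.04, -0.02 and -0.01 on Cel-239b arrays B to D. The 14 measured interferon-stimulated genes summed to 5615 to 10464 on miR-709 arrays, against 5079 to 6976 on Cel-239b arrays. On RMA values no marker can be at 0, and the part of these lists in the lipid gene results was not tested. The 8 phospholipid genes averaged 0.13, 0.17, 0.14 and 0.14 on miR-709 arrays A to D, against 0.04, -0.05 and 0.01 on Cel-239b arrays B to D. Much of that was *Pcyt1a*, since the other 7 averaged 0.04, 0.08, 0.06 and 0.07 on miR-709 arrays, against 0.04, -0.02 and -0.02 on Cel-239b arrays.

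**Figure D3:**
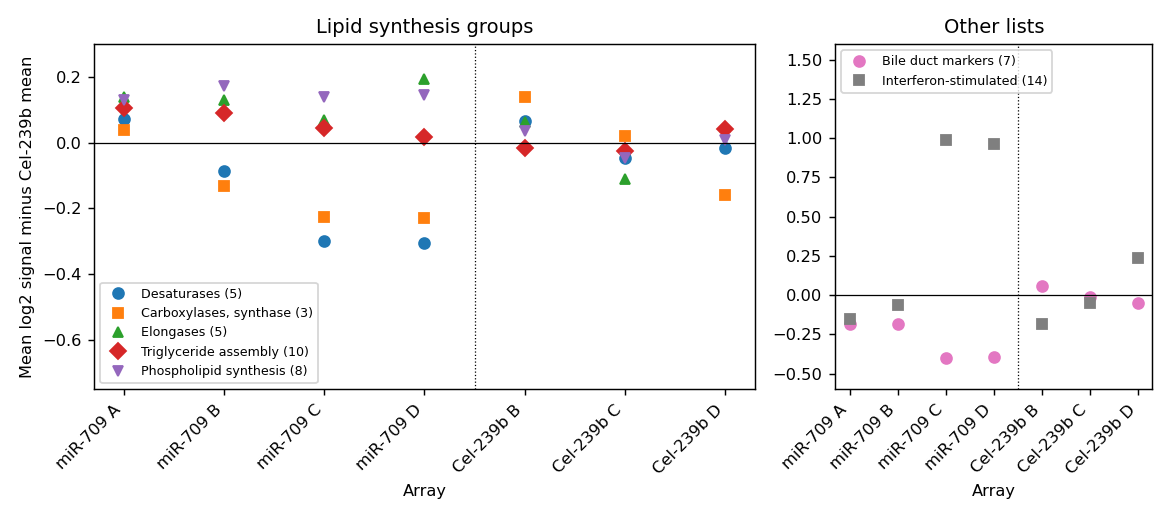
Mean over the genes of a group of the log2 signal minus the Cel-239b mean of each gene, for each array, with the number of genes in brackets, lipid synthesis groups on the left and other lists on the right with its own scale. The desaturases and the carboxylases with the synthase sit lowest on miR-709 arrays C and D, the arrays on which the interferon-stimulated genes reach 0.99 and 0.96.

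Of the 5 elongases, which add carbons to fatty acyl chains, none was called. Fitted changes were above 0 in 4 of the 5, and in 10946 of all 19938 genes. *Elovl1* gave 10.79, 10.83, 10.83 and 10.91 on miR-709 arrays A to D, against 10.88, 10.77 and 10.94 on Cel-239b arrays B to D (log2 fold change -0.02). *Elovl3*, an elongase of saturated and monounsaturated chains, was dim, with a mean log2 signal of 4.33. It gave 4.56, 4.32, 4.48 and 4.51 on miR-709 arrays A to D, against 4.32, 4.05 and 4.06 on Cel-239b arrays B to D. The lowest miR-709 array equalled the highest Cel-239b array, and the log2 fold change was 0.32 (standard error 0.09, unadjusted p = 0.0043, limma adjusted p = 0.0937). It was called when Cel-239b replicate B was left out (adjusted p = 0.0466). *Elovl5*, which elongates polyunsaturated chains, had a log2 fold change of 0.17 (limma adjusted p = 0.309). *Elovl6*, which elongates palmitate, had 0.16 (limma adjusted p = 0.379), and *Elovl2* had 0.03.

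Triglyceride assembly, with 10 genes, held 1 lower and 1 higher call, each 10% of the list, where 1.47% and 1.81% of all genes were called. When only genes averaging at least 6 were tested, 4.24% of such genes were called lower and 6.43% higher. In that test 9 of the 10 remained, and *Gpam* was also called higher. In 2 of the 10 genes (20%) every miR-709 array lay below every Cel-239b array, and in 4 (40%) above. These shares were 4.91% and 7.44% over all genes, and 8.21% and 13.8% over genes averaging at least 6. *Gpam*, the mitochondrial glycerol 3-phosphate acyltransferase that opens the pathway, gave 10.71, 10.65, 10.61 and 10.63 on miR-709 arrays A to D, against 10.43, 10.42 and 10.41 on Cel-239b arrays B to D. The groups did not overlap, and the SD was 0.04 among miR-709 arrays and 0.01 among Cel-239b arrays. The log2 fold change was 0.23 (standard error 0.05, 1.17-fold, limma adjusted p = 0.0535), just outside the threshold. The methods' t-test, which takes the gene's own spread alone, called *Gpam* (adjusted p = 0.0372) and no other lipid synthesis gene.

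Of the 3 acyltransferases of the second step, *Agpat1* was called and *Agpat2* and *Agpat3* were not. *Agpat2*, whose loss causes lipodystrophy in humans and mice, gave 9.98, 10.03, 9.92 and 9.98 on miR-709 arrays A to D, against 9.61, 9.58 and 9.95 on Cel-239b arrays B to D. Only Cel-239b replicate D lay inside the miR-709 range. Its log2 fold change was 0.26 (standard error 0.09, limma adjusted p = 0.196), and 0.38 with adjusted p = 0.0195 when Cel-239b replicate D was left out. *Agpat3* gave 8.99, 9.11, 9.07 and 9.12 on miR-709 arrays A to D, against 9.35, 9.21 and 9.30 on Cel-239b arrays B to D, without overlap (log2 fold change -0.21, standard error 0.06, unadjusted p = 0.0065, limma adjusted p = 0.119). Within each array the log2 ratio of *Agpat1* to *Agpat2* was -2.86, -2.76, -2.76 and -2.71 on miR-709 arrays A to D, against -2.04, -1.99 and -2.10 on Cel-239b arrays B to D. It lay lower on every miR-709 array, and the difference between treatments, -0.73, was not tested. The log2 ratio of *Agpat1* to *Agpat3* differed less, by -0.25, also not tested. It was -1.87, -1.84, -1.91 and -1.85 on miR-709 arrays A to D, against -1.78, -1.62 and -1.45 on Cel-239b arrays B to D.

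Among the lipins, *Lpin1* had a log2 fold change of 0.03 (limma adjusted p = 0.927) and *Lpin3* of -0.04 (limma adjusted p = 0.830). The log2 ratio of *Lpin2* to *Lpin1* was 1.85, 2.13, 1.96 and 2.20 on miR-709 arrays A to D, against 1.65, 1.56 and 1.5 on Cel-239b arrays B to D, so that these did not overlap either. *Lpin1* itself varied among the miR-709 arrays, at 8.91 on replicate A against 8.45 to 8.60 on the other miR-709 arrays and 8.54 to 8.69 on Cel-239b arrays. The last step is carried by the diacylglycerol acyltransferases. *Dgat2* gave 9.74, 9.76, 9.63 and 9.63 on miR-709 arrays A to D, against 9.51, 9.52 and 9.48 on Cel-239b arrays B to D, higher on every miR-709 array (log2 fold change 0.19, standard error 0.06, limma adjusted p = 0.156). *Dgat1* was also higher on all 4, by 0.10 (limma adjusted p = 0.459), and *Mogat1*, a monoacylglycerol acyltransferase, was dim, with a mean log2 signal of 3.26 and a change of 0.05.

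**Figure D4:**
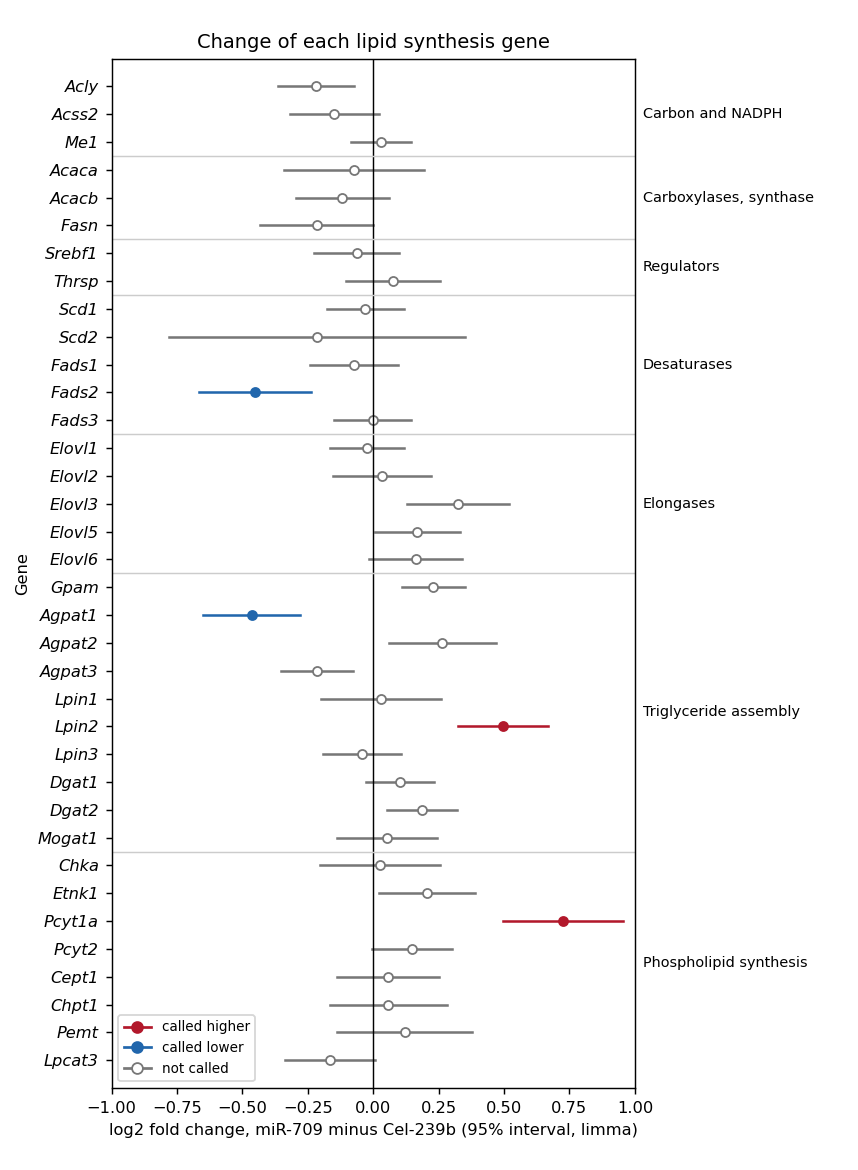
Log2 fold change of miR-709 minus Cel-239b for each of the 36 measured genes, with its 95% confidence interval from limma, grouped by role. Filled red and blue points are the genes called higher (*Lpin2*, *Pcyt1a*) and lower (*Fads2*, *Agpat1*), and open grey points are the 32 that were not called, of which *Scd2* has the widest interval.

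Of the 10 phospholipid genes 8 were measured, and *Pcyt1a* was called higher (12.5%). Of all genes 1.81% were called higher, and 6.43% when only genes averaging at least 6 were tested. Fitted changes were above 0 in 7 of the 8, and in 10946 of all 19938 genes. *Pcyt2*, the matching enzyme that makes CDP-ethanolamine, had a log2 fold change of 0.15 (95% interval -0.004 to 0.30, limma adjusted p = 0.348). The log2 ratio of *Pcyt1a* to *Pcyt2* was 0.13, 0.23, 0.15 and 0.16 on miR-709 arrays A to D, against -0.33, -0.62 and -0.28 on Cel-239b arrays B to D. It lay higher on every miR-709 array, and the difference between treatments, 0.58, was not tested. *Etnk1*, an ethanolamine kinase, gave 8.71, 8.72, 8.73 and 8.61 on miR-709 arrays A to D, against 8.60, 8.57 and 8.29 on Cel-239b arrays B to D (log2 fold change 0.21, limma adjusted p = 0.273), with the highest Cel-239b array just below the lowest miR-709 array. *Chka*, a choline kinase, had 0.03 (limma adjusted p = 0.943). *Lpcat3*, which puts polyunsaturated chains into phosphatidylcholine, gave 10.35, 10.36, 10.28 and 10.43 on miR-709 arrays A to D, against 10.56, 10.36 and 10.64 on Cel-239b arrays B to D (log2 fold change -0.17, limma adjusted p = 0.352). *Pemt*, which makes phosphatidylcholine by methylation in hepatocytes, had 0.12, *Cept1* 0.06 and *Chpt1* 0.06, the last 2 being the enzymes that join the activated head group to diacylglycerol. *Chkb* was read only by a probe set that names several genes, and *Etnk2* was not analysed here.

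The pathway was widened with 75 further genes in 3 lists, of which 69 were measured: 19 of fatty acid supply and synthesis, 31 of glycerolipid and phospholipid enzymes and 19 of regulators. Of these 69, 1 was lower, 4 were higher and 64 were not called, and their median log2 fold change was 0.05. These calls are 1.45% lower and 5.80% higher, where 1.47% and 1.81% of all genes were called. When only genes averaging at least 6 were tested, 56 of the 69 remained, with 2 lower and 5 higher. Of all genes in that test 4.24% were lower and 6.43% higher. *Cds2* encodes a CDP-diacylglycerol synthase, an enzyme that takes phosphatidate towards phosphatidylinositol. It gave 9.89, 9.87, 9.99 and 9.98 on miR-709 arrays A to D, against 9.45, 9.34 and 9.48 on Cel-239b arrays B to D (log2 fold change 0.51, standard error 0.06, limma adjusted p = 0.0023). *Gnpat*, the peroxisomal acyltransferase that starts ether lipid synthesis, was higher by 0.38 (standard error 0.06, limma adjusted p = 0.0067), with 9.14, 9.22, 9.17 and 9.27 on miR-709 arrays A to D, against 8.80, 8.79 and 8.86 on Cel-239b arrays B to D. Both were also called by the methods' t-test (adjusted p = 0.0270 for each), and each call was kept when any single array was left out. Without both miR-709 arrays C and D, *Cds2* had 0.46 (adjusted p = 0.0599) and *Gnpat* 0.36 (adjusted p = 0.0853).

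The other 3 calls were less firm. *Insig2*, which holds the SREBP precursors in the endoplasmic reticulum, gave 10.77, 10.87, 10.87 and 10.72 on miR-709 arrays A to D, against 10.58, 10.31 and 10.36 on Cel-239b arrays B to D (log2 fold change 0.39, limma adjusted p = 0.0279). *Plpp1*, a phosphatidate phosphatase of the cell surface, gave 7.97, 7.89, 7.75 and 7.86 on miR-709 arrays A to D, against 7.57, 7.30 and 7.58 on Cel-239b arrays B to D (log2 fold change 0.38, limma adjusted p = 0.0431). *Lpcat4*, a lysophospholipid acyltransferase, was the lower gene, with 5.83, 5.75, 5.96 and 5.92 on miR-709 arrays A to D, against 6.11, 6.25 and 6.31 on Cel-239b arrays B to D (log2 fold change -0.36, limma adjusted p = 0.0315). None of the 3 overlapped between treatments. Of the 69 wider pathway genes, 8.7% had every miR-709 array below every Cel-239b array and 13% above. These shares were 4.91% and 7.44% over all genes, and 8.21% and 13.8% over genes averaging at least 6. *Insig2* kept its call among the single arrays left out only without Cel-239b replicate B (adjusted p = 0.0185, and 0.0544 to 0.127 without any of the others), *Lpcat4* only without Cel-239b replicate B (0.0410) or miR-709 replicate C (0.0489, and 0.0740 to 0.135 without any of the others), and *Plpp1* lost its call without each of them in turn (0.0618 to 0.132).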

How the data were processed

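Log2 signals per probe set were used as the authors deposited them. Per the labels they were made with Partek and RMA (versions not given in the sources used here), which corrects the background, sets all arrays to 1 distribution and summarises probes. Quantile scaling of this kind makes changes relative to the other genes. Scanner files were not used here. Of 28853 probe sets, 21789 had 1 gene symbol, 1621 had several and 5443 had none, and 21698 symbols were matched by gene number. Where a gene had several (999 genes), its brightest probe set over all arrays was taken. The 4 miR-709 and 3 Cel-239b arrays were compared with limma 3.58.1 in R 4.3.3 (2-sided, Benjamini-Hochberg over 19938 genes), which fits the same model as the 1-way ANOVA that the methods name. That ANOVA, here the methods' t-test, was an alternative. The model was checked on simulated data with independent noise and added changes larger than any among the lipid synthesis genes. That check does not cover changes of their size or shifts shared by genes on an array. The members and lists were chosen with earlier results of these data known. Values on every array are given for called lipid synthesis and pathway genes, lipid synthesis genes with an unadjusted p under 0.01, those called under an alternative and the brightest gene of each role. The values of *Scd2*, *Etnk1*, *Dgat2* and the family ratios were chosen after they were seen. Other alternatives were median centring, cyclic loess or a further quantile normalization, limma-trend, weights for arrays, every probe set or their mean per gene, only genes averaging at least 5 or 6, the replicate letter as a block (fixed, or random), leaving out each array and, chosen after seeing the data, both miR-709 arrays C and D left out. For the wider pathway all alternatives were added after seeing the data. Replicate letters B, C and D occur in both treatments, but nothing says that a letter marks a shared culture. Promoter windows are from RefSeq (GRCm38.p6).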

Additional observations from a re-analysis of the deposited data

Results flagged for a closer look

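Within the 4 miR-709 arrays, the highest or lowest array was set apart from the others by a gap over Dixon's 95% critical value for 2 of the 36 genes, where chance gives about 1 in 20. *Chka* stood at 8.14 on miR-709 replicate A against 8.06 to 8.07 on the other miR-709 arrays, a gap of 0.875 of the range, and 7.80 to 8.29 on Cel-239b arrays. *Etnk1* stood at 8.61 on miR-709 replicate D against 8.71 to 8.73 on the other miR-709 arrays, a gap of 0.833 of the range.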

How the results depend on the processing

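No called gene changed sign under any of the 20 alternatives. *Pcyt1a* and *Lpin2* each kept their call in 18, *Agpat1* in 15 and *Fads2* in 11. Of the 2 lower and 2 higher lipid synthesis genes, the methods' t-test called 0 lower and 1 higher, although 4 lower and 6 higher had its unadjusted p under 0.05 (4 and 8 with limma). Without both miR-709 arrays C and D, limma called 0 lower and 0 higher (3 and 5 at an unadjusted p under 0.05), and 0 lower and 0 higher of the wider pathway (3 and 13). That fit has 2 miR-709 arrays and called 92 genes lower and 76 higher of all 19938, where 293 and 361 were called with 7 arrays. With array weights 1 gene was lower, and testing only genes that averaged at least 5, or at least 6, gave 3 higher, with *Gpam* added. When each array was left out in turn, the lipid synthesis genes gave 0 to 1 lower and 2 to 3 higher, the 0 being without miR-709 replicate C (4 lower at an unadjusted p under 0.05). Of the wider pathway, with 1 lower and 4 higher genes, the methods' t-test called 0 lower (5 at its unadjusted p under 0.05) and 2 higher, the filters at 5 and 6 called 2 lower, and leaving out each array gave 0 to 1 lower and 2 to 4 higher. The median log2 fold change of the 36 genes, 0.03, was 0.0018 after quantile normalization and -0.0092 after cyclic loess, where the median of all genes was 0.0020 and -0.00034. Of the 32 genes not called, 15 changed sign and 3 (*Gpam*, *Elovl3* and *Agpat2*) were called under at least 1 alternative. Same-lettered arrays did not deviate together, with correlations of 0.02 for B, 0.02 for C and 0.05 for D. Arrays of differing letters gave -0.06 to 0.08. With 3 same-lettered pairs this cannot say whether a letter marks a shared culture or isolation. With the replicate letter as a fixed block 1 lower (without *Agpat1*, adjusted p = 0.0543) and 2 higher lipid synthesis genes and 0 lower and 2 higher genes of the wider pathway were called, and as a random block 2 lower and 2 higher lipid synthesis genes. With 4 and 3 arrays, changes of more than 2 standard errors also missed the threshold (*Gpam*, *Agpat2*, *Fasn*), and 2 of the 36 genes (*Elovl3* and *Mogat1*) had a mean log2 signal under 6. Apart from the missing arrays and genes that a setting itself removes, the cause of these changes was not tested.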
